A study of Mus musculus with 12 samples.

Results

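Entry of a cell into S phase is decided in G1 by a small set of genes, and 10 of them were followed here from undifferentiated mouse induced pluripotent stem cells (iPSCs) to day 4 of differentiation: the D cyclins Ccnd1, Ccnd2 and Ccnd3, cyclin E1 (Ccne1), the cyclin-dependent kinase Cdk6, the kinase inhibitors Cdkn1a, Cdkn1b and Cdkn2b, and the transcription factors Myc and Mycn. They were chosen by name, with earlier results of these data known. Each was read from the Affymetrix probe set that carries its symbol alone and has the highest mean over the 12 arrays. Of the 10, 9 could be read in this way, among 19938 genes so measured. The only probe set of Cdkn1a lists 2 gene symbols, and its signal was not analysed here.

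D cyclins bind CDK4 or CDK6 and phosphorylate the retinoblastoma protein, which frees E2F factors to switch on the genes of DNA replication. Cyclin E with CDK2 then takes over at the border of S phase. The CDKN2 (INK4) proteins block CDK4 and CDK6, the CDKN1 (CIP/KIP) proteins hold cyclin-CDK2 complexes, and MYC proteins, which pair with MAX on E-box sequences, promote growth and the exit from G1. Mouse pluripotent cells are known for a short G1 phase with little D cyclin and kinase inhibitor, which lengthens as they differentiate.

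The 12 arrays form 4 groups of 3. The iPSC day 0 group held undifferentiated iPSCs and is the control named by the series design. The spontaneous day 4 group held cells left to differentiate without direction, the cardiac day 4 group held cells of an optimized cardiac differentiation, and the sorted CPC day 4 group was labelled as cells enriched for cardiac progenitors (CPCs) by sorting for FLK1 and PDGFRα on the surface (FLK1+/PDGFRα+). FLK1 is the product of Kdr and PDGFRα that of Pdgfra. The cell line, any genetic change and whether replicates came from separate cultures are not given in the sources used here, so the p-values reflect the spread of these samples alone, possibly a technical one. RNA was measured in bulk, so fewer cells of a type and less RNA per cell cannot be told apart.

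Values are log2 signals from robust multi-array averaging (RMA), given per array in the order of replicates 1, 2 and 3, or as mean ± SD (n = 3), and a difference of 1 is 2-fold. Array medians lay between 6.09 and 6.26, and precision is limited by their number. All 9 probe sets had a mean above that of 59.2% of genes or more. A gene was called where limma's test gave a Benjamini-Hochberg adjusted p under 0.05 over 19938 genes with a difference of at least 1.

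Some libraries, 3 in number, stood apart from the other day 4 arrays in Kdr. Kdr lay between 5.50 and 5.78 at day 0 and between 9.83 and 10.71 in spontaneous cultures. In the group labelled sorted CPC it was 10.23 in replicate 1 but 6.25 and 6.03 in replicates 2 and 3. Pdgfra likewise was 11.13 in sorted replicate 1 but 8.47 and 8.29 in replicates 2 and 3, below the 8.75 to 9.14 of day 0, so both sort markers went against the label in these libraries. In the cardiac group Kdr was 10.81 and 9.01 in replicates 2 and 3 but 5.42 in the library labelled replicate 1. The mean of 14 mesoderm markers, which include Kdr and Pdgfra, was also lower in these 3 libraries than in the other day 4 arrays. It was 6.96 in cardiac replicate 1 and 7.30 and 7.13 in sorted replicates 2 and 3. It lay between 7.98 and 8.64 in the other 6 day 4 arrays and between 6.56 and 6.60 at day 0. Because Kdr and Pdgfra enter this mean, it is not independent of them. Other markers of the list were not all low in these libraries. In cardiac replicate 1 and sorted replicates 2 and 3, Eomes was 8.48, 10.34 and 8.60, above the 6.10 to 6.97 of day 0. Mesp1 was 5.53, 6.06 and 5.99 in them, beside 5.67 to 6.03 at day 0. In cardiac replicate 1 Pdgfra was 9.42, above day 0, and Gata4 was 9.88, against 8.22 to 8.83 at day 0. The mean of 13 pluripotency markers separated the times, with 9.56 to 9.88 at day 0 and 7.13 to 8.43 at day 4. That of 8 heart muscle genes did not, with 6.37 to 6.42 and 6.13 to 6.55. For the 9 measured genes and the lists of G1 control, results on the cardiac and sorted groups are given with and without these 3 libraries where that changes a call. Calls of cell type markers were not refitted without them.

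Against day 0, 2 of the 9 measured genes were called in spontaneous cultures, Ccnd2 and Myc, both higher. This is set against 3.57% of all genes called in that comparison and 1.99% called higher. In cardiac cultures 0 were called (2.20% of all genes), with 5 at an unadjusted p under 0.05, and in the libraries labelled sorted 0 were called (2.11% of all genes), with 4 at an unadjusted p under 0.05. Between day 4 groups 0 of 9 were called in each of the 3 comparisons by limma, with 2 at an unadjusted p under 0.05 between cardiac and spontaneous cultures, 1 between sorted and cardiac, and 1 between sorted and spontaneous samples. Over all genes 0% were called in the first and second of these comparisons and 0.00502% in the last. Without sorted replicates 2 and 3, 98 genes were called between sorted and cardiac samples and 5 between sorted and spontaneous ones, and without all 3 libraries of low Kdr 115 and 110. Of the 9 members, 0 were among them. These fits have 1 sorted array, assumed to vary like the other groups, as in every fit below without sorted replicates 2 and 3. A moderated F test over the 4 groups passed 0 of 9 at an adjusted p under 0.05, against 5.86% of all genes, and its lowest adjusted p was 0.0545, for Cdkn1b. The 3 comparisons with day 0 share the same day 0 arrays. The share of all genes at an unadjusted p under 0.05 was not computed. Counts at that threshold, here and below, are therefore not set against it.

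The number of members whose arrays did not overlap with day 0 was 4 above and 4 below in spontaneous cultures, beside 19.4% and 21.6% of all genes. It was 1 above and 3 below in cardiac cultures (12.8% and 16.2%), and 2 above and 1 below in the libraries labelled sorted (10.2% and 11.3%). Between day 4 groups, Cdkn1b was higher without overlap in cardiac than in spontaneous cultures (5.23% of all genes), and Ccnd2 lower without overlap in sorted than in spontaneous samples (10.2%).

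**Figure D1:**
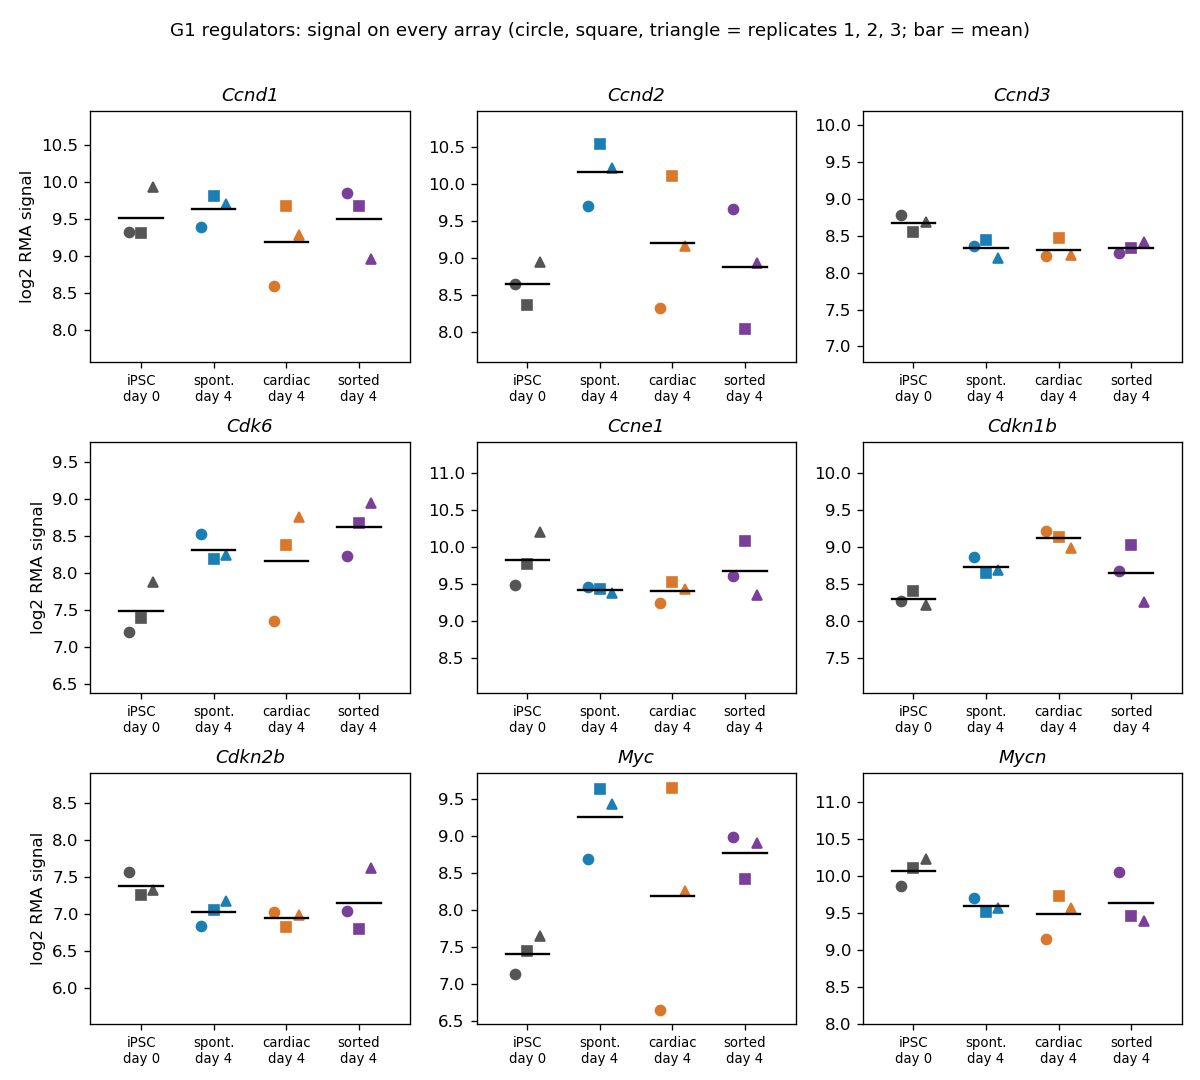
Signal of the 9 measured G1 regulators on each of the 12 arrays; the vertical axis is the log2 RMA signal over a span of the same height in each panel, the horizontal axis the group, the marker shape the replicate, and the bar the group mean. Ccnd2 and Myc in spontaneous cultures lay above all day 0 arrays, Ccnd3 lay lower in all 9 day 4 arrays, and the cardiac arrays were spread widely for Ccnd2, Cdk6 and Myc.

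Ccnd2 was the only D cyclin called, and only in spontaneous cultures. Its signal at day 0 was 8.65, 8.36 and 8.95, and in spontaneous cultures it was 9.71, 10.55 and 10.22. The 2 groups did not overlap. Ccnd2 rose there by 1.50 ± 0.43 (SE, 95% interval 0.57 to 2.44), or 2.84-fold, with an adjusted p of 0.0438 by limma. Cardiac cultures gave 8.33, 10.11 and 9.17, and the libraries labelled sorted gave 9.66, 8.04 and 8.93. Both groups ran from below the lowest day 0 array to above the highest. The difference from day 0 was 0.55 (interval -0.38 to 1.48, adjusted p = 0.457 by limma) in cardiac cultures and 0.22 (-0.71 to 1.15, adjusted p = 0.844 by limma) in sorted libraries.

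The means of Ccnd2 thus ran in the order spontaneous (10.16 ± 0.42), cardiac (9.20 ± 0.89), sorted (8.88 ± 0.81) and day 0 (8.65 ± 0.29). Of the neighbours in this order, none differed with an adjusted p under 0.05 by limma. The sorted libraries all lay below the spontaneous arrays, with a difference of -1.28 (interval -2.21 to -0.35) that had an unadjusted p of 0.0107 and an adjusted p of 0.342 by limma. Without sorted replicates 2 and 3 this difference was -0.50 (adjusted p = 0.667), and that of sorted samples from day 0 was 1.01 (adjusted p = 0.279). Without the 3 libraries of low Kdr, Ccnd2 was higher than day 0 in cardiac cultures by 0.98 (adjusted p = 0.0356 by limma), just under the minimum difference.

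The call of Ccnd2 was a narrow one. It was lost when any of the 6 arrays compared was left out (adjusted p from 0.0547 to 0.169 by limma), and also without cardiac replicate 3 (0.0654), which enters the shared estimate of the spread. With the 6 arrays of these groups fitted alone, the adjusted p was 0.00193 by limma.

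Ccnd1, the cyclin best known as a target of growth factor signals, showed no separation between the times. Its day 0 signal was 9.32, 9.31 and 9.93. The 9 day 4 arrays lay between 8.60 and 9.85, of which 3 were below all day 0 arrays and 0 above them. The difference from day 0 was 0.11 (interval -0.50 to 0.73) in spontaneous, -0.33 (-0.94 to 0.28) in cardiac and -0.02 (-0.63 to 0.59) in sorted samples. The means ran from spontaneous (9.63 ± 0.21) and day 0 (9.52 ± 0.35) to sorted (9.50 ± 0.47) and cardiac (9.18 ± 0.54), with each step within the SDs.

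Ccnd3, the D cyclin with the least spread between arrays of a group, lay on the other side of day 0 from Ccnd2. It was 8.78, 8.55 and 8.69 at day 0. It was 8.36, 8.44 and 8.20 in spontaneous cultures, 8.22, 8.47 and 8.24 in cardiac cultures, and 8.26, 8.33 and 8.41 in the libraries labelled sorted. All 9 day 4 arrays were below all 3 day 0 arrays, a pattern that 5.15% of all genes showed. With arrays centred on their medians it held for 7 of the 9 arrays, and after repeated quantile normalization and cyclic loess for 9.

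The size of the Ccnd3 difference was small: -0.34 ± 0.13 (SE, adjusted p = 0.122 by limma) in spontaneous, -0.36 (adjusted p = 0.118) in cardiac and -0.34 (adjusted p = 0.161) in sorted samples. None was called, and the 3 day 4 means (8.34, 8.31 and 8.33) lay within 1 SD of each other. The libraries of low Kdr did not stand out here.

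Cdk6 is one of the pair of kinases that D cyclins activate. The 250 bases before its start site (RefSeq, GRCm38.p6, chr5:3343643-3343892, plus strand) are shown because they hold the canonical E-box CACGTG, the sequence that MYC-MAX dimers bind, at bases -220 to -215 from the start site (in capitals).
Cdk6: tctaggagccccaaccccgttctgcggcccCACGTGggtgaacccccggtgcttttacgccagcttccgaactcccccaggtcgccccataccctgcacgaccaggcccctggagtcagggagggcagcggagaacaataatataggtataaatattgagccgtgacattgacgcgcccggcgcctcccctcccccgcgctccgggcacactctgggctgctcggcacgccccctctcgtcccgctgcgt
CACGTG reads the same on both strands, and 6.02% of 32851 promoters in the table hold it in a window of this length. Promoters of 7 of the 10 genes were in the table, and Cdk6 was the only member among them with this motif. Those of Ccnd1, Ccnd2 and Myc were absent and could not be searched. A match describes the letters only.

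The signal of Cdk6 was 7.20, 7.39 and 7.87 at day 0 and 8.52, 8.18 and 8.24 in spontaneous cultures. It was 7.35, 8.38 and 8.76 in cardiac cultures and 8.23, 8.67 and 8.94 in the libraries labelled sorted. Of the 9 day 4 arrays, 8 lay above all day 0 arrays, and the exception was the library labelled cardiac replicate 1. Unlike Ccnd2, Cdk6 was as high in both sorted libraries of low Kdr as in the other day 4 arrays.

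The order of the Cdk6 means was sorted (8.62 ± 0.36), spontaneous (8.31 ± 0.18), cardiac (8.16 ± 0.73) and day 0 (7.49 ± 0.34), and the day 4 groups did not differ beyond their spread. The sorted libraries differed from day 0 by 1.13 ± 0.31 (SE, interval 0.47 to 1.79), with an adjusted p of 0.0521 by limma, which missed the threshold. The difference was 0.83 (interval 0.17 to 1.49, adjusted p = 0.112 by limma) in spontaneous and 0.67 (0.01 to 1.34, adjusted p = 0.215 by limma) in cardiac cultures. Which libraries were kept moved these values in both directions. Without cardiac replicate 1, Cdk6 was called in cardiac cultures (1.08, adjusted p = 0.0175 by limma) and in sorted samples (1.13, adjusted p = 0.00762). The sorted difference was also called without cardiac replicate 3 (0.0383) or sorted replicate 1 (0.046), and across all single omissions its adjusted p ran from 0.00762 to 0.198 by limma. Without sorted replicates 2 and 3, which have the highest sorted signals, it was 0.75 (adjusted p = 0.333 by limma), and 0.75 (0.087) without all 3 libraries of low Kdr.

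Ccne1, which drives the step from G1 into S phase and is periodic in most cells, was 9.49, 9.77 and 10.20 at day 0. It was 9.46, 9.43 and 9.38 in spontaneous cultures, 9.24, 9.53 and 9.43 in cardiac cultures, and 9.60, 10.08 and 9.35 in the libraries labelled sorted. The spontaneous arrays were nearly equal and lay below all day 0 arrays, and the sorted libraries overlapped day 0. The differences of -0.40, -0.42 and -0.14 had adjusted p-values of 0.245, 0.228 and 0.766 by limma, so none was called.

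Myc showed the largest difference of the measured members. Its signal was 7.14, 7.45 and 7.65 at day 0 and 8.70, 9.64 and 9.44 in spontaneous cultures. These groups did not overlap, and Myc rose by 1.85 ± 0.53 (SE, interval 0.69 to 3.0), or 3.6-fold, with an adjusted p of 0.0458 by limma. In cardiac cultures it was 6.65, 9.66 and 8.26, from below the lowest day 0 array to the highest value of all 12. In the libraries labelled sorted it was 8.99, 8.42 and 8.91, all above day 0.

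In the order of means, Myc went from spontaneous (9.26 ± 0.50) through sorted (8.77 ± 0.31) and cardiac (8.19 ± 1.51) to day 0 (7.41 ± 0.26). The sorted difference from day 0 was 1.36 (interval 0.20 to 2.51, adjusted p = 0.182 by limma) and the cardiac one 0.78 (-0.38 to 1.93, adjusted p = 0.4 by limma). Both moved with the libraries that were fitted. Without cardiac replicate 1, Myc was called in cardiac cultures (1.55, adjusted p = 0.0244 by limma) and in sorted samples (1.36, adjusted p = 0.0279). The sorted call was also made without cardiac replicate 2 (0.0473) and with only the arrays compared (0.0113). Without all 3 libraries of low Kdr the values were 1.55 (adjusted p = 0.0134 by limma) and 1.57 (0.045), the latter from 1 sorted array, and the sorted value without sorted replicates 2 and 3 alone was 1.57 (0.273).

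The call of Myc in spontaneous cultures was as narrow as that of Ccnd2. It was lost without any of the 6 arrays compared (adjusted p from 0.0554 to 0.166 by limma), without cardiac replicate 3 (0.0672), without sorted replicate 2 (0.0575), and without sorted replicates 2 and 3 together (0.0513). With only the 6 arrays of the 2 groups fitted, its adjusted p was 0.00107 by limma.

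**Figure D2:**
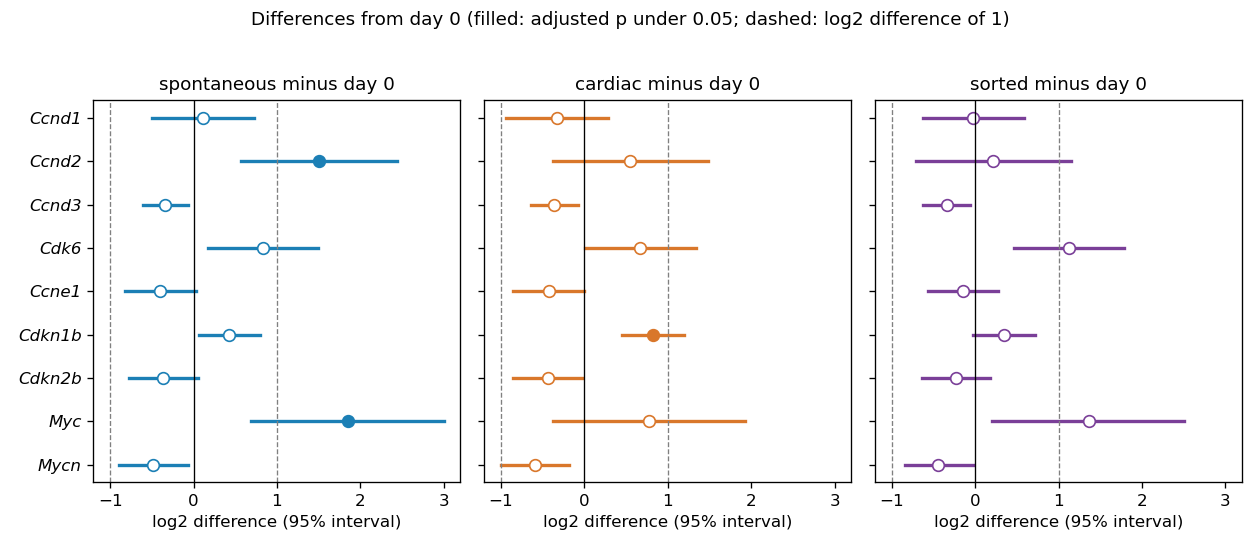
Log2 difference from day 0 for the 9 genes in each day 4 group, with 95% intervals of the limma fit; filled points have an adjusted p under 0.05, and the dashed lines mark the minimum difference of 1 in either direction. Ccnd2 and Myc in spontaneous cultures and Cdkn1b in cardiac cultures are filled, the last at 0.82 and so short of the minimum difference.

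Mycn, the family member tied to embryonic growth, differed from day 0 in the opposite sign to Myc. Its 250 upstream bases (RefSeq, GRCm38.p6, chr12:12941837-12942086, minus strand) are shown because they hold E2F-type sequences. E2F factors, which bind such sequences, are freed when the retinoblastoma protein is phosphorylated.
Mycn: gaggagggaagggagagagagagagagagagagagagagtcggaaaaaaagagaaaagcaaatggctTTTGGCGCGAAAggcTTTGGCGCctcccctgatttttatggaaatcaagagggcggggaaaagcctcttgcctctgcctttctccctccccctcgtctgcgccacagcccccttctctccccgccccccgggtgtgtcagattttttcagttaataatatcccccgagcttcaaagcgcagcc
Capitals mark matches to TTTCCCGC, TTTGGCGC, TTTCGCGC or TTTGCCGC on either strand. TTTGGCGC lies at bases -183 to -176 and -168 to -161 from the start site, and TTTCGCGC lies on the other strand at -179 to -172, overlapping the first. Such a match is in 1.86% of 32851 promoters of this length, and Mycn was the only one of the 7 members in the table that had it.

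The signal of Mycn was 9.87, 10.11 and 10.23 at day 0 and 9.70, 9.51 and 9.56 in spontaneous cultures. It was 9.15, 9.73 and 9.56 in cardiac cultures and 10.05, 9.46 and 9.39 in the libraries labelled sorted. Of the 9 day 4 arrays, 8 lay below all day 0 arrays, and the exception was sorted replicate 1. The differences were -0.48 (interval -0.89 to -0.07, adjusted p = 0.137 by limma), -0.59 (-1.0 to -0.18, adjusted p = 0.0855) and -0.44 (-0.84 to -0.03, adjusted p = 0.228) in spontaneous, cardiac and sorted samples, and none was called. Without sorted replicates 2 and 3 the sorted difference was -0.02 (adjusted p = 0.971 by limma). The day 4 means (9.59 ± 0.10, 9.48 ± 0.30 and 9.63 ± 0.36) lay within their SDs of each other.

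Of the kinase inhibitors, Cdkn1b, which encodes p27, was the one with a difference past an adjusted p of 0.05. Its 250 upstream bases (RefSeq, GRCm38.p6, chr6:134920151-134920400, plus strand) are shown because it is the inhibitor that differed and they carry the CCAAT and GC boxes common to housekeeping-type promoters.
Cdkn1b: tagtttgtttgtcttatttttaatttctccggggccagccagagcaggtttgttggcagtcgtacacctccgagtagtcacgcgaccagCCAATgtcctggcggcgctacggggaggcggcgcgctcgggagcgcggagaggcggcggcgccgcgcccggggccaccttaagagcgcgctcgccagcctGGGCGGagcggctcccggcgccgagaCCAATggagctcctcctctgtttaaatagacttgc
The capitals mark CCAAT at bases -161 to -157 and -35 to -31 and the GC box GGGCGG at -61 to -56, searched on both strands. These are frequent letters: CCAAT is in 33.8% and GGGCGG in 32.7% of 32851 promoters. No E2F-type sequence or CACGTG was found in this window.

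Cdkn1b gave 8.27, 8.41 and 8.22 at day 0, 8.86, 8.65 and 8.69 in spontaneous cultures, and 9.22, 9.14 and 8.99 in cardiac cultures. These 3 groups did not overlap. The libraries labelled sorted gave 8.68, 9.02 and 8.25, so that replicate 3 fell among the day 0 arrays. Cardiac cultures were higher than day 0 by 0.82 ± 0.17 (SE, interval 0.45 to 1.19), or 1.76-fold, with an adjusted p of 0.0155 by limma, but short of the minimum difference. At an adjusted p alone, 6.17% of all genes passed in that comparison and 3.37% were higher. The adjusted p rose to 0.0572, 0.0543 and 0.053 by limma without day 0 replicate 1, day 0 replicate 3 or cardiac replicate 2.

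The order of the Cdkn1b means was cardiac (9.12 ± 0.12), spontaneous (8.73 ± 0.12), sorted (8.65 ± 0.38) and day 0 (8.30 ± 0.10). The difference from day 0 was 0.43 (interval 0.06 to 0.80, adjusted p = 0.139 by limma) in spontaneous and 0.35 (-0.02 to 0.72, adjusted p = 0.287) in sorted samples. Cardiac cultures exceeded spontaneous ones by 0.38 (interval 0.01 to 0.76, adjusted p = 0.999 by limma), and the sorted libraries were below cardiac cultures by -0.46 (-0.84 to -0.09, adjusted p = 0.285).

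A second, dimmer probe set of Cdkn1b gave the same order of day 0 and both cultures. It read 6.22, 6.16 and 6.30 at day 0, 7.05, 6.80 and 6.94 in spontaneous cultures, 7.07, 7.41 and 7.0 in cardiac cultures, and 6.56, 6.79 and 6.34 in the libraries labelled sorted. Adjusted over 21789 probe sets by limma, its difference from day 0 was 0.70 ± 0.15 (SE, adjusted p = 0.0113) in spontaneous, 0.94 ± 0.15 (adjusted p = 0.0036) in cardiac and 0.33 ± 0.15 (adjusted p = 0.24) in sorted samples. Unlike on the first probe set, cardiac and spontaneous arrays overlapped on this one, with a difference of 0.23 (adjusted p = 0.998 by limma). Both probe sets read the same RNA samples and are not independent.

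Cdkn2b encodes p15, an INK4 inhibitor that TGF-beta induces in many cells. It was 7.57, 7.26 and 7.32 at day 0. It was 6.84, 7.06 and 7.17 in spontaneous cultures, 7.02, 6.82 and 6.98 in cardiac cultures, and 7.04, 6.79 and 7.62 in the libraries labelled sorted. The array of sorted replicate 3 was the highest of all 12, and the other 8 day 4 arrays were below all day 0 arrays. The differences of -0.36, -0.44 and -0.23 were not called (adjusted p = 0.277, 0.189 and 0.571 by limma).

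Markers of other cell types differed between the same groups. The mean of 10 endoderm markers was 6.48 to 6.66 at day 0, 6.90 to 7.66 in spontaneous cultures, 7.85 to 8.38 in cardiac cultures and 6.75 to 7.48 in the libraries labelled sorted, and 4 of the 10 were called higher in cardiac cultures against day 0, beside 1.26% of all genes. The group of highest Cdkn1b was thus also that of the highest endoderm markers. The highest array for both was the library labelled cardiac replicate 1, of low Kdr, with an endoderm mean of 8.38 and Cdkn1b of 9.22. Cardiac replicates 2 and 3 had endoderm means of 7.85 and 7.94 and Cdkn1b of 9.14 and 8.99. The mean of 15 fibroblast markers was 6.52 to 7.02 at day 0 and 6.08 to 6.59 at day 4. Called lower were 2, 2 and 1 of 15 in spontaneous, cardiac and sorted samples, beside 1.57%, 0.943% and 1.32% of all genes. The largest fall was that of Dcn, with 6.95 to 8.39 at day 0 and 5.60 to 6.33 at day 4. Others did not fall. The difference was above 0 for 5, 2 and 2 of the 15, and the dim Lum was 3.21 to 3.26 at day 0 and 3.12 to 3.46 at day 4. The 12 endothelial and blood markers had a mean of 6.33 to 6.36 at day 0 and 6.0 to 6.41 at day 4. Of them 1, the adhesion gene Pecam1, which pluripotent mouse cells also express, was called lower in all 3 comparisons with day 0, by -2.57, -1.98 and -2.37. The 6 neural markers had a mean of 6.25 to 6.33 at day 0 and 5.76 to 6.41 at day 4, with Nes called higher (1.35, 1.56 and 2.16) and 2, 1 and 1 called lower, among them Neurod1 (-1.51, -1.14 and -1.20), in spontaneous, cardiac and sorted samples. Dcn, Lum, Pecam1, Nes and Neurod1 are named after their values were seen. No marker is at 0 on the RMA scale, which has no true zero. These marker calls were not refitted without the 3 libraries of low Kdr. The part of these cell types in the levels of the G1 genes was not tested.

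**Figure D3:**
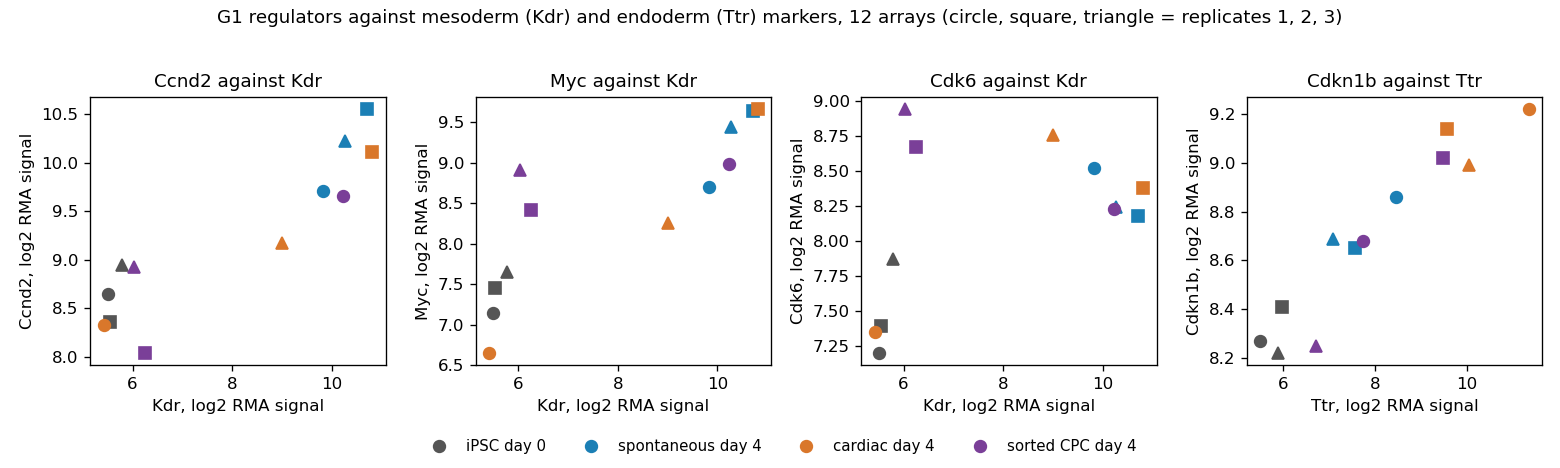
Ccnd2, Myc and Cdk6 against the mesoderm marker Kdr, and Cdkn1b against the endoderm marker Ttr, on the 12 arrays; both axes are log2 RMA signals, the colour is the group and the marker shape the replicate. Ccnd2 and Myc are low in the array of cardiac replicate 1, where Kdr is 5.42, while Cdk6 is high in sorted replicates 2 and 3 at Kdr of 6.25 and 6.03. Cdkn1b is highest in cardiac replicate 1, at the highest Ttr, 11.34.

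Among the arrays of day 4, Ccnd2 and Kdr were high and low in the same libraries: the 3 lowest Ccnd2 signals (8.04, 8.33 and 8.93) belonged to the 3 libraries of low Kdr. Myc was lowest in cardiac replicate 1 (6.65) but 8.42 and 8.91 in sorted replicates 2 and 3. Kdr and Ttr were picked for this description after their values were seen.

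The genes with the most similar profile were found by Pearson's r over the 12 arrays among 9767 genes with a mean above the median. Predicted loci and clones (names of Gm or LOC with a digit, or ending in Rik) were left out of that search. They are given for the 4 members of largest difference, a choice made after the values were seen, and r takes in differences between groups as well as within them. For Ccnd2 they were Phlda2 (r = 0.979), an imprinted gene that restrains placental growth, Ppic (0.971), a cyclophilin, and Ccdc134 (0.961). Phlda2 read 8.70, 8.56 and 9.25 at day 0 and 10.73, 11.93 and 11.53 in spontaneous cultures. It read 8.37, 11.05 and 9.36 in cardiac cultures and 10.39, 7.93 and 8.48 in the libraries labelled sorted. In sorted replicate 3 Phlda2 lay below all day 0 arrays, while Ccnd2 (8.93) lay among them.

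For Myc the closest genes were Ubtd2 (r = 0.969), Ctdsp1 (0.965), a small phosphatase of the RNA polymerase tail, and Rbms1 (0.965), an RNA-binding protein. Cdkn1b was closest to Ginm1 (0.956), Akap9 (0.953), a scaffold of the Golgi and centrosome, and Ttr (0.950), the transthyretin gene of visceral endoderm and liver. Cdk6 was closest to Tmem200a (0.938), Ppp4r4 (0.927) and Tasp1 (0.922), a protease that cleaves MLL proteins. Ttr is the endoderm marker with 5.50 to 5.97 at day 0 and 9.56 to 11.34 in cardiac cultures.

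Few of the other genes of the pathway were called. Of 17 kinases, cyclins and their regulators, 0 were called against day 0 in any of the 3 comparisons. Over all genes 3.57%, 2.20% and 2.11% were called in spontaneous, cardiac and sorted samples, so 0 of 17 does not set the list apart. At an unadjusted p under 0.05 by limma there were 6, 4 and 2 in the same order. The list medians were 0.14, 0.05 and 0.08, beside -0.03, -0.05 and 0.03 over all genes. Cdk4, the other kinase of the D cyclins, was 11.70 ± 0.33 at day 0 and 12.35 ± 0.03 in spontaneous cultures. The difference of 0.64 passed the adjusted p (0.0251 by limma), as 9.75% of all genes did there, but not the minimum difference. Ccng1, an atypical cyclin and p53 target, differed by 0.18, 0.03 and -0.09 (adjusted p = 0.436, 0.904 and 0.776 by limma).

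Among the 5 other kinase inhibitors 0 were called in each comparison with day 0, beside 3.57%, 2.20% and 2.11% of all genes. At an unadjusted p under 0.05 by limma there were 2, 1 and 1. Cdkn1c, which encodes p57 and is imprinted, read 8.46, 9.78 and 9.56 in spontaneous cultures against 8.18, 8.21 and 8.65 at day 0. This difference of 0.92 had an adjusted p of 0.0838 by limma, and Cdkn1c was called without spontaneous replicate 1. Cdkn2d, an INK4 inhibitor, was -0.16, -0.13 and -0.26 from day 0, with none called. The list medians were -0.16, -0.13 and -0.20.

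Of 17 genes of the retinoblastoma and E2F families, 1 rose in spontaneous cultures, where 1.99% of all genes were called higher. In cardiac and sorted samples 0 were called, beside 2.20% and 2.11% of all genes. At an unadjusted p under 0.05 by limma there were 8, 4 and 11 of 17, with no share of all genes to set beside them. E2f6, an E2F repressor that works with Polycomb proteins, was 8.13 on average at day 0 and 9.19 in spontaneous cultures. It rose by 1.07 ± 0.20 (SE, adjusted p = 0.00674 by limma), in 3 of 3 arrays, and fell short of a call after repeated quantile normalization and cyclic loess. Its differences in cardiac and sorted samples were 0.67 (adjusted p = 0.0725) and 0.60 (0.119). Tfdp1 and E2f4, the partner and the main repressor of the family, differed by 0.28 and 0.05 in spontaneous cultures. The list medians were -0.16, -0.06 and -0.32. Without sorted replicate 2, 1 gene of the list was called in sorted samples, and 2 without the 3 libraries of low Kdr.

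Of 27 E2F targets of DNA replication measured, of 28 listed, 0 were called in any of the 3 comparisons with day 0. Over all genes 3.57%, 2.20% and 2.11% were called there, so a count of 0 does not set this list apart. At an unadjusted p under 0.05 by limma there were 4, 1 and 2, and the medians were -0.07, -0.14 and -0.12. The list ranged from -0.42 to 0.53 in spontaneous, from -0.37 to 0.42 in cardiac and from -0.50 to 0.40 in sorted samples. Pcna, the sliding clamp of DNA polymerase, differed by 0.02, -0.05 and 0.18, and Mcm7, a subunit of the replicative helicase, by 0.12, 0.03 and 0.04.

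Of 13 partners and antagonists of MYC, Mycl alone was called, in the libraries labelled sorted. Mycl, the third MYC gene, was 6.99, 7.86 and 7.42 at day 0 and 8.81, 8.66 and 8.40 in those libraries. It rose by 1.20 ± 0.26 (SE, adjusted p = 0.0187 by limma), in a comparison where 0.787% of all genes were called higher. The call was lost without day 0 replicate 1, day 0 replicate 3 or sorted replicate 1, or without sorted replicates 2 and 3 together. In spontaneous cultures Mycl was 8.46, 8.35 and 8.39, a difference of 0.98 (adjusted p = 0.0327 by limma) just under the minimum, which passed it without day 0 replicate 2. In cardiac cultures it differed by 0.83 (adjusted p = 0.0805) and was called without cardiac replicate 1. Max, the obligate partner, differed by 0.10, 0.12 and -0.24, and Mga by -0.24, -0.02 and -0.43. The list medians were 0.01, 0.04 and -0.08.

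Of 21 MYC targets of ribosome synthesis and metabolism measured, of 22 listed, 0 were called in each comparison with day 0. Those comparisons called 3.57%, 2.20% and 2.11% of all genes, so the list does not stand apart. At an unadjusted p under 0.05 by limma there were 4, 4 and 4. The medians were 0.11, 0.01 and -0.01, and the largest difference in spontaneous cultures was 0.60. Ldha, lactate dehydrogenase, differed by 0.42, 0.44 and 0.16, and the nucleolar protein gene Npm1 by -0.11, 0.01 and -0.11.

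Genes of the p53 pathway, which acts on G1 through Cdkn1a, were called in 1 direction, lower at day 4. Of 19 measured of 21 listed, 4 fell in spontaneous, 2 in cardiac and 3 in sorted samples, and 0 rose. Over all genes 1.57%, 0.943% and 1.32% were called lower. The list medians were -0.25, -0.42 and -0.48, with 17, 15 and 14 of 19 below 0. The members that fell have different roles. Plk3, a stress-responsive kinase, fell by 1.69, 1.35 and 1.53 (adjusted p = 0.00074, 0.00338 and 0.0018 by limma), from 8.08, 8.56 and 8.19 at day 0 to between 6.34 and 7.37 at day 4. All 9 day 4 arrays were below all day 0 arrays.

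Gadd45a, a DNA damage gene that restrains CDK1, was 9.49, 9.55 and 9.04 at day 0 and 7.77, 7.61 and 7.77 in spontaneous cultures, where it fell by 1.64 (adjusted p = 0.00682 by limma). Mdm4, an inhibitor of p53, fell by 1.13 in spontaneous and 1.24 in sorted samples (adjusted p = 0.00915 and 0.00744 by limma). Eda2r, a death receptor, fell by 1.01 and 1.07 in the same samples (0.0107 in both). Plk2 fell by 1.31 in cardiac cultures (0.00596). Mdm2, the ubiquitin ligase of p53, differed by -0.58, -0.55 and -0.50 and Trp53inp1 by -0.16, -0.22 and -0.60, none of them called. The count in spontaneous cultures was 2 without day 0 replicate 1, and the count in sorted samples was 5 without sorted replicate 3, 8 without sorted replicates 2 and 3, and 9 without the 3 libraries of low Kdr.

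Of 10 measured of 12 TGF-beta response genes, 3 rose in spontaneous cultures, where 1.99% of all genes were called higher. In cardiac and sorted samples 0 were called, beside 2.20% and 2.11% of all genes. Id3, an inhibitor of helix-loop-helix factors, rose by 2.08 (adjusted p = 0.01 by limma), the inhibitory Smad6 by 2.04 (0.0133) and the pseudoreceptor gene Bambi by 1.31 (0.0411). All 3 are also known as targets of BMP. The corepressor Skil differed by 0.74 in cardiac cultures (adjusted p = 0.0195 by limma), under the minimum difference, and Tgif1 by -0.16, -0.02 and -0.13 from day 0. The medians were 0.22, 0.28 and -0.04, and the difference was below 0 for 4, 4 and 6 of the 10. Tgfbi, named after its values were seen, was 7.56 to 7.81 at day 0 and 6.62 to 7.22 at day 4. All 9 of its day 4 arrays lay below day 0, a pattern of 5.15% of all genes. The count in spontaneous cultures was 1 without day 0 replicate 2, 0 without spontaneous replicate 2 and 1 without spontaneous replicate 3.

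**Figure D4:**
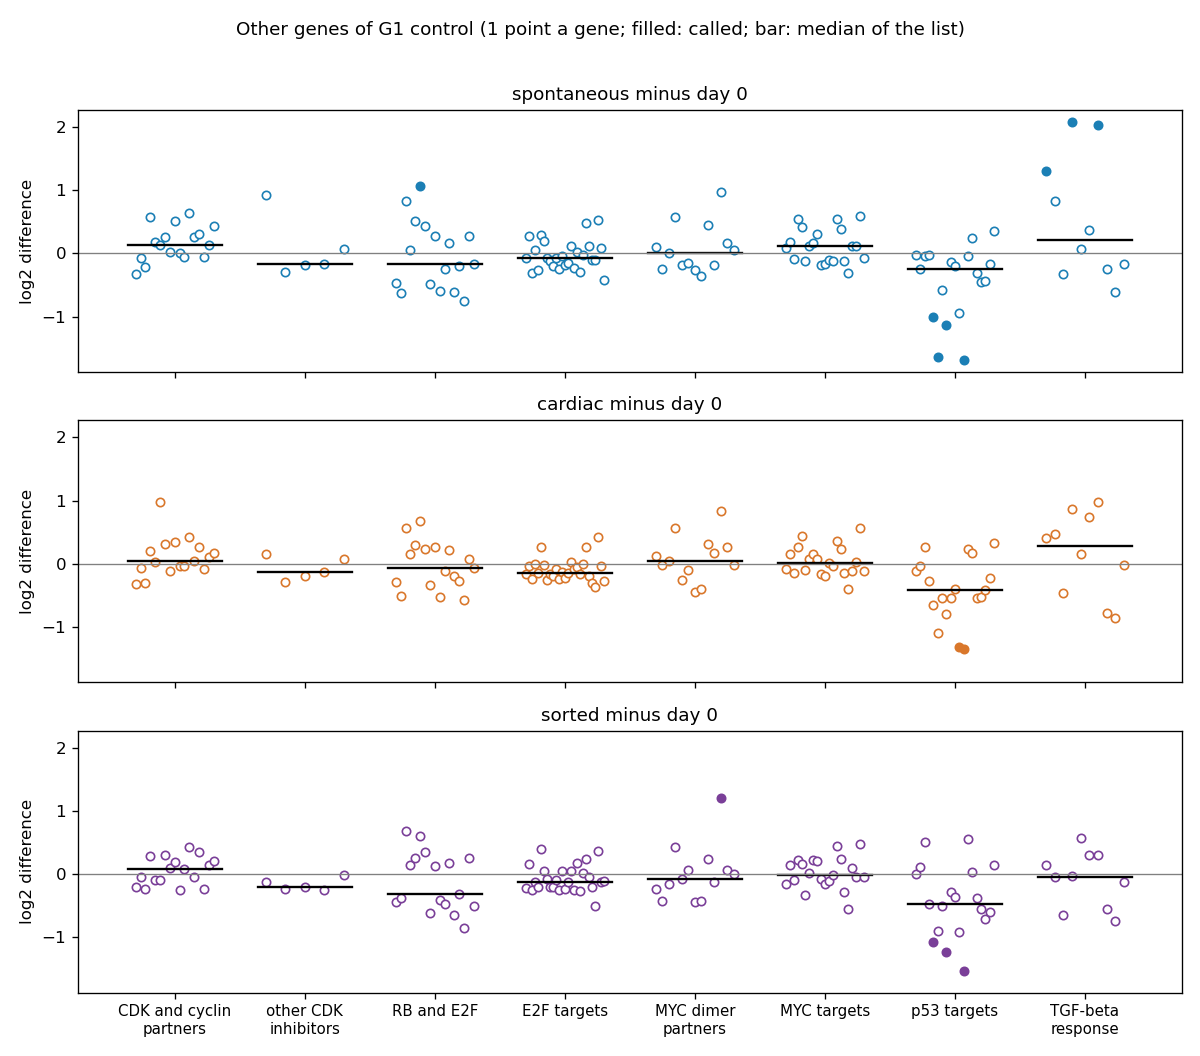
Log2 difference from day 0 of the genes of 8 fixed lists around G1 control, in spontaneous, cardiac and sorted samples from top to bottom; each point is a gene, filled points are called, and the bar is the list's median. The E2F and MYC target lists lie close to 0 in all 3 panels, called points of the p53 list lie below it, and those of the TGF-beta list lie above it in spontaneous cultures.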

How the data were processed

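The deposited table held 35557 probe sets on 12 arrays. The authors deposited log2 RMA signals, for which the submitters' processing notes name Affymetrix Expression Console 1.3.1. Their log base was taken from the range of the values, and no background level was measured here. The platform annotation listed 23410 probe sets, of which 21789 had 1 symbol. The brightest per gene was kept, which left 19938 genes.

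A limma 3.58.1 model (R 4.3.3) with a mean per group, 6 contrasts and an intensity trend (8 residual and 5.01 prior degrees of freedom) gave two-sided p-values, Benjamini-Hochberg adjusted over all 19938 genes. It was checked on simulated data. A call needed an adjusted p under 0.05 and a log2 difference of at least 1. The main fit did not pair samples by replicate number. Arrays of the same number in different groups, each taken as its deviation from the group mean, had r from -0.38 to 0.31 over 18 pairs. Arrays of different numbers were not compared in this way, so these values cannot decide whether samples were paired. Within each group no arrays were identical, and the lowest r was 0.966 to 0.992 by group. Pairs of arrays from different groups were not searched for duplicates.

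The members and lists were chosen with earlier results of these data known. The text names all members and, per list and comparison, up to 4 called genes of largest difference and up to 2 uncalled ones of highest mean, plus up to 3 genes of most similar profile. Mycl and E2f6 are also given in comparisons where they were not called, and Tgfbi is named outside this rule. Promoter sequences are RefSeq's, of GRCm38.p6.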

Additional observations from a re-analysis of the deposited data

How the results depend on the processing

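The alternatives were 12 single arrays left out, 12 other settings and, chosen after seeing the data, 2 fits without the libraries labelled sorted CPC replicates 2 and 3, the second also without cardiac replicate 1. Of 1014 values for 39 differences of the members, 948 kept direction and side of the threshold. The 2 calls in spontaneous cultures became 1 with a replicate block (Myc, adjusted p = 0.0351, while Ccnd2 had 0.0673) and without both sorted replicates, and 0 without an intensity trend, with a robust prior, repeated quantile normalization, cyclic loess or treat, limma's test against a log2 difference of 1 (0 to 2 with single arrays left out). In sorted samples 0 became 1 with the replicate block, a filter on dim genes, quantile normalization, cyclic loess or 3 libraries left out, and 2 with only the arrays compared (0 to 2). In cardiac cultures 0 became 1 with no minimum difference and 2 without the 3 libraries (0 to 2). The F test passed 1 with the replicate block, no trend, a robust prior, the filter, the mean of probe sets, quantile normalization, cyclic loess or both sorted replicates left out, 4 with array weights and 5 without the 3 libraries (0 to 2). With treat, 0 genes of any G1 list were called. The F test was not run for only the arrays compared, no minimum difference or treat. Between day 4 groups the counts of members stayed 0 in every setting run. The causes were not tested, beyond the fewer samples or genes of some fits.

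Uncalled differences changed sign as follows. Ccnd1 in sorted samples against day 0 became 0.16 with array weights and 0.34 in both fits with libraries left out (-0.20 to 0.25 over single arrays). Ccnd2 and Ccne1 there ran from -0.17 to 0.64 and from -0.34 to 0.05 over single arrays. For sorted against cardiac, Ccnd2 became 0.16 with array weights, 0.46 without both sorted replicates and 0.02 without the 3 libraries (-0.76 to 0.13), Cdk6 became -0.33 without the 3 libraries, and Myc ran from -0.19 to 1.32. For cardiac against spontaneous, Cdk6 became 0.25 without the 3 libraries (-0.45 to 0.25). For sorted against spontaneous, Cdk6 became -0.08 in both fits with libraries left out, and Cdkn1b became 0.03 with cyclic loess and 0.01 with quantile normalization (-0.26 to 0.12).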
